A study of Arabidopsis thaliana with 14 samples.

Results

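Chloroplast-encoded genes of photosynthesis were followed through 7 kinds of sample from young Arabidopsis seeds. The set was fixed by name: it took every probe set with 1 gene symbol that is written in lower case and begins with psa, psb, pet, ndh, rbcL, ycf or rpo, or with atp followed by a letter. That rule gave 49 probe sets for 49 genes, all on the plastid genome in the gene table used here, out of 13356 genes with a probe set of their own. They comprised 15 genes of photosystem II (psb), 5 of photosystem I (psa), 6 of the cytochrome b6f complex (pet), the gene of the large Rubisco subunit (rbcL), 6 of the ATP synthase (atp), 10 of the NDH complex (ndh), 4 of the plastid RNA polymerase (rpo) and the reading frames ycf3 and ycf4. Another 20 plastid-encoded genes, 15 of them for ribosomal proteins, fell outside the rule and are used for comparison.

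The seeds came from the accession Ws-0, with no mutant or treatment, and held an embryo proper of 2 to 8 cells. Siliques of 1.0 to 1.1 cm were taken from plants aged 38 to 46 days that grew at 20 °C under continuous light. Laser capture microdissection, which cuts chosen tissue out of thin sections, gave whole seed sections, the embryo proper, the micropylar endosperm around the embryo, the peripheral endosperm, the chalazal endosperm at the opposite pole, the chalazal seed coat and the general seed coat. Each group had 2 biological replicates on 1 array each, 14 arrays in all, and the peripheral endosperm carries that name in its titles while its source label calls it cellularized endosperm. The labels do not tie samples to single plants or say how many seeds were pooled, so the p-values measure the spread between these samples.

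Chloroplasts keep a small genome of their own. It encodes the core proteins of both photosystems, the cytochrome b6f complex and the ATP synthase, which together turn light into a proton gradient and ATP, while the nucleus encodes their antenna and many outer subunits. The NDH complex returns electrons from photosystem I to the plastoquinone pool in cyclic electron flow. Plastid genes are read by a bacterial-type RNA polymerase, whose core subunits are the products of rpoA, rpoB, rpoC1 and rpoC2, and by phage-type polymerases encoded in the nucleus. Photosystem genes are read mainly by the plastid-encoded enzyme, the rpoB unit by the nuclear-encoded one, and NDH, ATP synthase and ribosomal protein genes by both.

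Signal is given as deposited, in array units on a linear scale. Each difference was taken between log2(signal + 35.9231) values, an added value that makes the changes of dim genes smaller. Signals are compared between groups for 1 gene, and between genes only as the rank of the plastid genes on each array. Each of the 6 compartments was compared with the average of the remaining 5. To be called, a gene needed a difference of at least 2-fold and an adjusted p under 0.05 (limma, Benjamini-Hochberg over the 17336 probe sets tested). Tested probe sets had, in at least 1 group, both values above the 40th percentile of their arrays, as all 49 genes did. The plastid genes were among the brightest on every array: their median lay between the 93.96th and the 98.60th percentile. Their replicates differed by a standard deviation of 0.17 to 0.33 within a group on the log2 scale, against 0.52 to 0.78 over all tested probe sets. The array medians ran from 110.4 to 179, highest in whole seeds. BBM, an embryo gene, gave 581 and 680.2 in the embryo proper and at most 125 in any other compartment. The other tested embryo marker, PHV, did not set the embryo proper apart (-0.44, SE 0.63), and the summed signal of both was 684 to 799 there, against 14.8 to 298 in the other compartments. Summed signal of the 3 tested endosperm markers, of 8 listed, was 1878 to 11810.1 on endosperm arrays, against 290 to 752 on arrays of the other compartments. Summed signal of 4 of 9 listed seed coat markers was 16895 to 39759 on seed coat arrays, against 633 to 4884 on the other compartments. In such samples fewer chloroplasts, fewer green cells and less RNA per chloroplast cannot be told apart. The probe sequences were not used here, so signal from copies of plastid DNA in the other genomes was not separated.

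**Figure D1:**
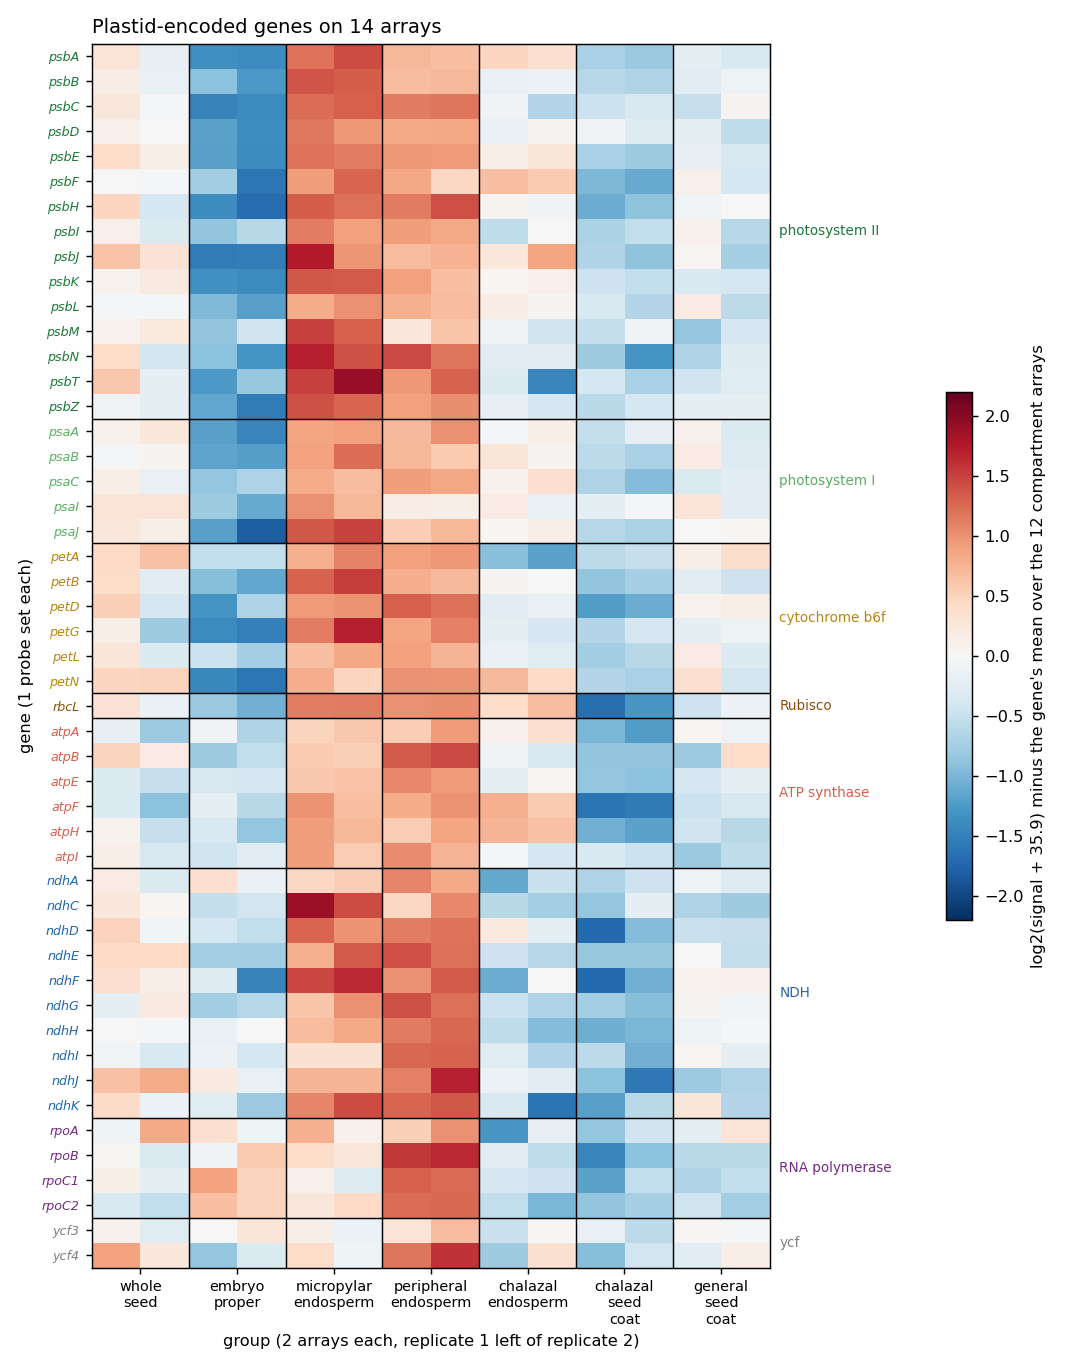
Each row is 1 of the 49 genes, grouped by complex, and each column 1 of the 14 arrays, with replicate 1 left of replicate 2. Colour gives log2(signal + 35.9) minus the gene's mean over the 12 compartment arrays, red above and blue below it. Of the 20 photosystem rows 19 have their lowest mean in the embryo proper (all but psaC) and 18 their highest in the micropylar endosperm (all but psaC and psbH), while the 4 RNA polymerase rows have their highest means in the peripheral endosperm. With quantile normalization the photosystem rows split 10 and 10 between micropylar and peripheral endosperm, and with arrays scaled to 1 median 11 and 9. The embryo proper was then lowest for 19 and 15 of them.

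The embryo proper had low signal for photosystem genes, and 22 of the 49 genes were called lower there, against 12.1% of all tested probe sets called lower in that comparison. None was called higher by limma, with 2 higher at an unadjusted p under 0.05. Without embryo replicate 2, 19 genes were called lower and rpoC1 was called higher. The micropylar endosperm had 29 genes called higher, against 9.86% of probe sets called higher, and the peripheral endosperm had 32, against 10.2%. Neither had a gene called lower, and none was lower at an unadjusted p under 0.05 in either. The chalazal endosperm had 2 genes called lower, against 18.7%, and the chalazal seed coat 19, against 9.92%. Without chalazal endosperm replicate 1, 5 genes were called lower in the chalazal endosperm. The general seed coat had no gene called, against 21.3% in either direction, with 17 genes lower and none higher at an unadjusted p under 0.05. By compartment means, the micropylar endosperm was the brightest compartment for 25 genes and the peripheral endosperm for the other 24, and the dimmest was the embryo proper for 22 genes, the chalazal seed coat for 21, the chalazal endosperm for 4 and the general seed coat for 2. Counts in the micropylar endosperm depend on the scaling. With quantile normalization 17 genes were called higher there. Of the 49 genes 20 had both micropylar arrays above all other compartment arrays, or 11 with quantile normalization and 7 with arrays scaled to 1 median. The split between the bright compartments depends on it too: it was 14 and 35 genes with quantile normalization and 15 and 34 with arrays scaled to 1 median.

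Photosystem II splits water, and its reaction centre holds the D1 protein, the product of psbA. The signal of psbA was 23111 and 16834 in whole seeds, 7387 and 7226 in the embryo proper, 43688 and 51116 in micropylar, 31494 and 30015 in peripheral and 26345 and 24141 in chalazal endosperm, 11528 and 10746 in the chalazal and 16270.4 and 14972 in the general seed coat. Both embryo arrays lay below and both micropylar arrays above all 10 other compartment arrays. The embryo proper differed from the mean of the other compartments by -1.65 (SE 0.15, limma adjusted p = 1.85e-07), and the micropylar endosperm by 1.58 (SE 0.15, adjusted p = 1.1e-07). In order of level, psbA was highest in the micropylar, then the peripheral and the chalazal endosperm, then the general seed coat, the chalazal seed coat and the embryo proper. No array of one compartment crossed into the next in that order, yet peripheral and chalazal endosperm, neighbours in it, differed by only 0.29 (SE 0.19, adjusted p = 0.29).

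The small subunit gene psbJ had the widest range of photosystem II genes over the compartments. It gave 8262 and 6615 in whole seeds, 1813 and 1832 in the embryo proper, 17936 and 10496 in micropylar, 8645 and 9115 in peripheral and 6246 and 9774 in chalazal endosperm, 3333 and 2865 in the chalazal and 5498 and 3177 in the general seed coat. The embryo arrays again lay below all others, with a difference of -1.83 (SE 0.24, limma adjusted p = 1.54e-05), while the micropylar and the general seed coat arrays differed most within their pairs. For psbH, another small subunit, the values were 5724 and 3142 in whole seeds, 1554 and 1256 in the embryo proper, 10419 and 9551 in micropylar, 9079 and 11001 in peripheral and 4257 and 3863 in chalazal endosperm, 1911 and 2193 in the chalazal and 3919.6 and 4130.4 in the general seed coat. Micropylar and peripheral endosperm overlapped for psbH, and each was called higher than the other compartments. The narrowest range was that of psbI, with 3772 and 2806 in whole seeds, 1900.3 and 2271 in the embryo proper, 7698 and 6566 in micropylar, 6636 and 6263 in peripheral and 2368 and 3537 in chalazal endosperm, 2134 and 2394 in the chalazal and 3753 and 2263 in the general seed coat. Its embryo arrays overlapped those of both seed coat regions, and its embryo difference of -0.89 (SE 0.25) missed the 2-fold limit.

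All 15 photosystem II genes were below 0 in the embryo comparison, by 0.79 to 1.83, and 13 were called lower, all but psbI and psbM. The called genes include psbD and psbC for the reaction centre protein D2 and the inner antenna CP43 (-1.53 and -1.72), psbB for the antenna CP47 (-1.30), and psbE and psbF for cytochrome b559 (-1.55 and -1.41). In the micropylar endosperm all 15 were called higher, by 1.10 to 2.06, and 12 had both arrays above all other compartment arrays, against 7.38% of tested probe sets. With quantile normalization 9 of the 15 were called and 5 stood clear of all other arrays, and with arrays scaled to 1 median 4 stood clear. In the peripheral endosperm 8 were called higher, with a median difference of 1.01, and with arrays scaled to 1 median 14 were. The largest micropylar difference, 2.06 for psbT (SE 0.43, adjusted p = 0.00145), came from signals of 894 and 1209 there, against 100.2 and 148 in the embryo proper and 229 and 83.9 in the chalazal endosperm. The gene psbN, needed for photosystem II assembly in tobacco, lies on the strand opposite to its neighbours psbT and psbH. Since the sources do not say whether the label keeps the strand, the signal of psbN cannot be told apart from RNA of that opposite strand.

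Photosystem I passes electrons on to ferredoxin, and psaA and psaB encode its reaction centre pair. The gene psaB gave 31384 and 33077 in whole seeds, 14228 and 13766 in the embryo proper, 58655 and 75102 in micropylar, 52837 and 47644 in peripheral and 38518 and 33140.4 in chalazal endosperm, 21295 and 19530.0 in the chalazal and 35952 and 26292 in the general seed coat. Embryo arrays lay below and micropylar arrays above all others, with differences of -1.42 (SE 0.14, limma adjusted p = 4.71e-07) and 1.27 (SE 0.14, adjusted p = 1.04e-06). The small subunit gene psaJ had the widest range, at 2056 and 1879.6 in whole seeds, 736 and 464 in the embryo proper, 4511 and 4899 in micropylar, 2514 and 2871 in peripheral and 1770.4 and 1906 in chalazal endosperm, 1104 and 1057 in the chalazal and 1742 and 1760.4 in the general seed coat. Its micropylar mean was 7.63 times its embryo mean, from the log2(signal + 35.9231) values, with micropylar arrays above and embryo arrays below all others.

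The iron-sulphur subunit gene psaC followed another order. Its signal was 17534 and 14397 in whole seeds, 8865 and 10074 in the embryo proper, 28462 and 25778 in micropylar, 30321 and 29078 in peripheral and 17132 and 20837 in chalazal endosperm, 10036 and 8259 in the chalazal and 12841 and 13661 in the general seed coat. Both peripheral arrays were the highest of all, and the chalazal seed coat had the lowest mean, with arrays that overlapped those of the embryo proper. On the plastid genome psaC lies between ndh genes, in one co-transcribed unit with them. It was called higher in the peripheral endosperm (1.06, SE 0.15, limma adjusted p = 4.41e-05), and its embryo difference was -0.92 (SE 0.15), not called. Of the 5 photosystem I genes the other 4 were called lower in the embryo proper, and the same 4 were called higher in the micropylar endosperm. With quantile normalization 1 of the 5 was called there and with arrays scaled to 1 median 2 were.

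**Figure D2:**
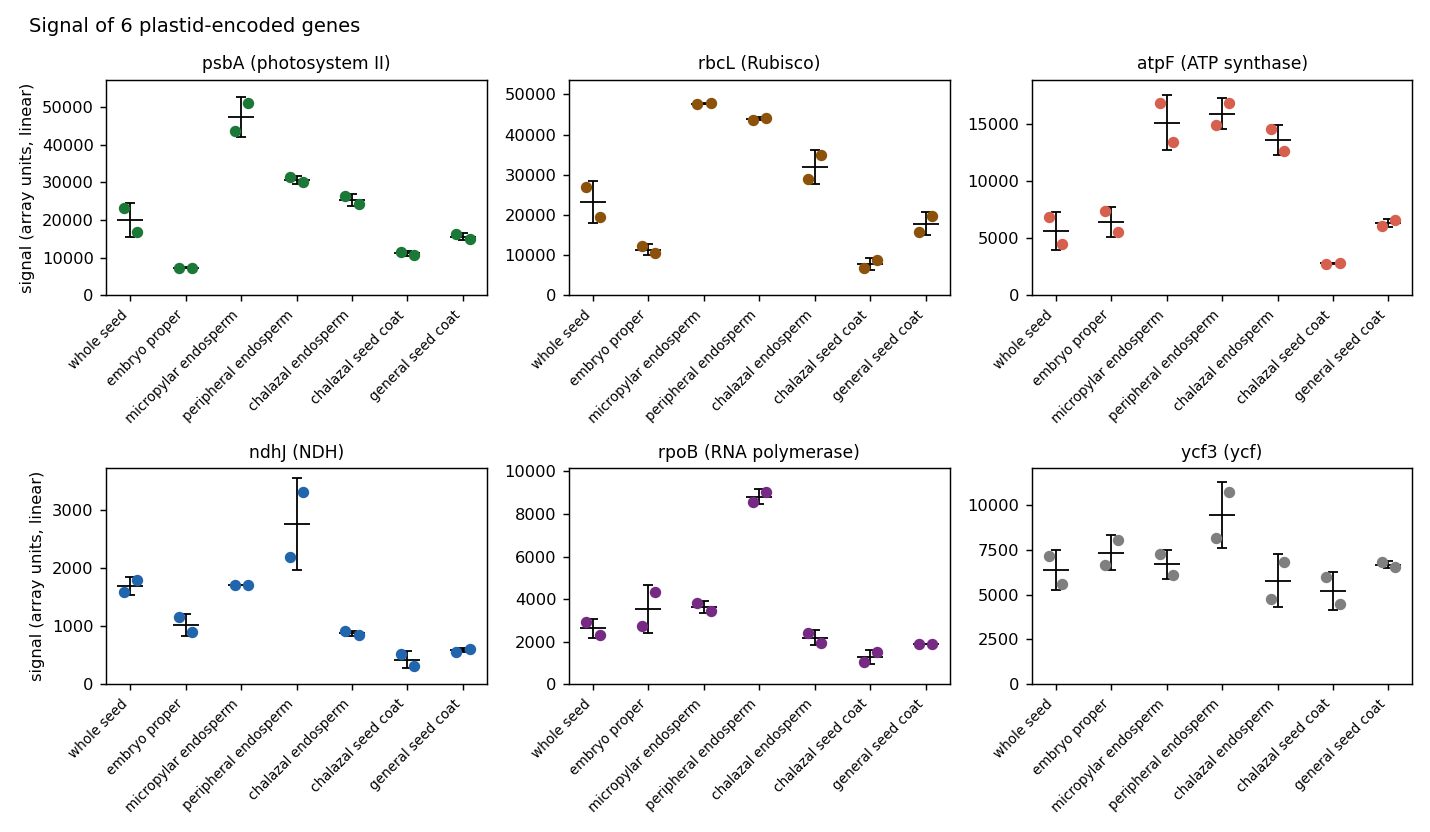
Signal in array units (linear axes that start at 0) of psbA, rbcL, atpF, ndhJ, rpoB and ycf3 in the 7 groups; points are single arrays, the long line is the mean and the whiskers the SD (n = 2). The embryo proper is lowest for psbA, the chalazal seed coat for rbcL, atpF and ndhJ, and the peripheral endosperm stands above all groups for rpoB at 8585 and 9054.

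The cytochrome b6f complex links the photosystems. The gene petG of a small subunit gave 2227 and 1156 in whole seeds, 746 and 692 in the embryo proper, 4487 and 6696 in micropylar, 3737 and 4434 in peripheral and 1752 and 1566 in chalazal endosperm, 1275 and 1554 in the chalazal and 1730.0 and 1873 in the general seed coat. Embryo arrays were lowest (-1.74, SE 0.28, limma adjusted p = 0.000102) and micropylar arrays highest (1.70, SE 0.28, adjusted p = 0.000158). Another small subunit gene, petN, gave 10177 and 10328 in whole seeds, 2718 and 2430.0 in the embryo proper, 12816 and 10223 in micropylar, 14861 and 14625 in peripheral and 12125 and 9976 in chalazal endosperm, 4703 and 4474 in the chalazal and 9361 and 5573 in the general seed coat. For petN the peripheral arrays were highest and the embryo arrays lowest, with no overlap. The narrowest range was that of petL, with 662 and 438 in whole seeds, 382 and 309 in the embryo proper, 883 and 1008 in micropylar, 1054 and 941 in peripheral and 489 and 447 in chalazal endosperm, 304 and 345 in the chalazal and 621 and 434 in the general seed coat. Micropylar and peripheral arrays lay above all others, but petL was called in none of the 6 comparisons of a compartment with the others.

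Of the 6 cytochrome b6f genes 4 were called lower in the embryo proper, against 12.1% of tested probe sets. They were petB for cytochrome b6, petD for subunit IV, petG and petN. In the micropylar endosperm 4 of the 6 were called higher (petA, petB, petD and petG), against 9.86% of tested probe sets. In the peripheral endosperm 4 were also called higher (petA, petD, petG and petN), against 10.2%. With quantile normalization 2 were called in the micropylar endosperm. The gene of cytochrome f, petA, was 1 of only 2 of the 49 genes called lower in the chalazal endosperm, against 18.7% of tested probe sets. Its difference there was -1.26 (SE 0.22, limma adjusted p = 0.000201). It gave 1526 and 1281 there, below all other compartment arrays, against 5536 and 5690.2 in the peripheral endosperm.

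Rubisco fixes carbon dioxide, and rbcL encodes its large subunit. Its signal was 27022 and 19558 in whole seeds, 12327 and 10440.1 in the embryo proper, 47554 and 47888 in micropylar, 43744 and 44196 in peripheral and 28902 and 35002 in chalazal endosperm, 6854 and 8901 in the chalazal and 15898 and 19866 in the general seed coat. All 6 endosperm arrays lay above all 4 seed coat arrays, and the chalazal seed coat was lowest of all compartments. Its differences were -1.77 in the chalazal seed coat (SE 0.16, limma adjusted p = 5.45e-08), -1.12 in the embryo proper (SE 0.16), 1.36 in the micropylar endosperm (SE 0.16) and 1.22 in the peripheral endosperm (SE 0.16), all called. Micropylar and peripheral endosperm differed by 0.12 (SE 0.20, adjusted p = 0.766), a sign that turned with other scalings, down to -0.59. With quantile normalization rbcL was not called in the micropylar endosperm, the embryo proper was its dimmest compartment, and the endosperm arrays no longer all lay above the seed coat arrays.

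The ATP synthase genes set the chalazal seed coat apart more than the embryo. The gene atpF, for a subunit of the membrane part, gave 6853 and 4497 in whole seeds, 7395 and 5521 in the embryo proper, 16852 and 13433 in micropylar, 14957 and 16869 in peripheral and 14566 and 12654 in chalazal endosperm, 2763 and 2858 in the chalazal and 6125 and 6615 in the general seed coat. The micropylar arrays overlapped those of both other endosperm regions, and the chalazal seed coat lay below every other array (-1.90, SE 0.20, limma adjusted p = 3.61e-07). For atpB, the beta subunit of the catalytic part, the values were 6159.7 and 4959.9 in whole seeds, 2539 and 2994 in the embryo proper, 6546 and 6358 in micropylar, 11174 and 12056 in peripheral and 4158 and 3448 in chalazal endosperm, 2376 and 2377 in the chalazal and 2501 and 5798 in the general seed coat. Peripheral arrays stood above all others (1.68, SE 0.25, adjusted p = 6.1e-05), and the general seed coat pair was the loosest of the gene. The gene atpI had the narrowest range, at 3834 and 2705 in whole seeds, 2542 and 2934 in the embryo proper, 6593 and 5128 in micropylar, 7188 and 5827 in peripheral and 3379 and 2667 in chalazal endosperm, 2743 and 2480.2 in the chalazal and 1946 and 2347 in the general seed coat. It was the only ATP synthase gene lowest in the general seed coat.

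No ATP synthase gene was called in the embryo proper by limma. All 6 were below 0 there, by 0.41 to 0.80, and 4 were lower at an unadjusted p under 0.05. In the chalazal seed coat 5 of the 6 were called lower, all but atpI, with both arrays of each below all other compartment arrays, against 4.16% of tested probe sets. With quantile normalization 2 were called. In the peripheral endosperm 4 were called higher, and in the micropylar endosperm none was, although all 6 were above 0 by 0.65 to 0.99 and had an unadjusted p under 0.05. Without micropylar replicate 2, 3 were called there.

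The NDH genes were high in the peripheral endosperm. The gene ndhJ, for a subunit of the arm outside the membrane, gave 1585 and 1795 in whole seeds, 1154 and 890.5 in the embryo proper, 1703 and 1706 in micropylar, 2197 and 3319.7 in peripheral and 910.1 and 842 in chalazal endosperm, 522 and 315 in the chalazal and 559 and 611 in the general seed coat. Peripheral arrays stood above all others (1.68, SE 0.31, limma adjusted p = 0.000444) and chalazal seed coat arrays below (-1.48, SE 0.31, adjusted p = 0.00101). The membrane subunit gene ndhF had the widest range of all 49 genes, at 169 and 140.2 in whole seeds, 95.1 and 21.6 in the embryo proper, 401 and 457 in micropylar, 282 and 369 in peripheral and 38.3 and 121 in chalazal endosperm, 12.3 and 39.9 in the chalazal and 131 and 135 in the general seed coat. Micropylar arrays were above all others for ndhF, and its values below 40 lie near the added value, so its differences are understated. The gene ndhA, a membrane subunit near the joint of the arms, had the narrowest range, at 3073 and 2149.8 in whole seeds, 3499 and 2431 in the embryo proper, 3712 and 3943 in micropylar, 5717 and 4855 in peripheral and 1214 and 1915 in chalazal endosperm, 1679 and 1968 in the chalazal and 2483 and 2214 in the general seed coat. It was lowest in the chalazal endosperm, which both seed coat regions overlapped or exceeded.

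In the peripheral endosperm 9 of the 10 NDH genes were called higher, by 1.15 to 1.68, all but ndhC at 0.91. For 5 of them both arrays lay above all other compartment arrays, as for 15 of the 49 genes (23 with quantile normalization or with arrays scaled to 1 median), against 6.44% of tested probe sets. In the micropylar endosperm 5 were called (ndhC, ndhD, ndhE, ndhF and ndhK), or 3 without micropylar replicate 2. None was called in the embryo proper, where 2 were above 0 and 8 below and 4 were lower at an unadjusted p under 0.05. In the chalazal seed coat 7 were called lower, or 4 without chalazal endosperm replicate 1 and 4 without general seed coat replicate 1. Of the NDH genes ndhK alone was called lower in the chalazal endosperm (-1.16, SE 0.33, limma adjusted p = 0.0105), and without chalazal endosperm replicate 2 it was not called, nor with quantile normalization. The called count there was 2 without embryo replicate 2 and without chalazal endosperm replicate 1. The mean over compartments was highest in the peripheral endosperm for 8 NDH genes and in the micropylar endosperm for ndhC and ndhF.

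The RNA polymerase genes had a pattern unlike that of the photosystem genes. The beta subunit gene rpoB gave 2944 and 2293 in whole seeds, 2729 and 4336 in the embryo proper, 3814 and 3427 in micropylar, 8585 and 9054 in peripheral and 2425 and 1945 in chalazal endosperm, 1026 and 1522 in the chalazal and 1899 and 1891 in the general seed coat. Peripheral arrays stood above all others (1.92, SE 0.25, limma adjusted p = 1.36e-05) and chalazal seed coat arrays below (-1.42, SE 0.25, adjusted p = 0.000213), and the embryo arrays overlapped the micropylar ones. The gene rpoC1, for part of the beta-prime subunit, gave 4647 and 3701 in whole seeds, 7874 and 5916 in the embryo proper, 4580.2 and 3451 in micropylar, 10609.6 and 10054 in peripheral and 3255 and 3087 in chalazal endosperm, 1856 and 2882 in the chalazal and 2617 and 2891 in the general seed coat. Here the embryo proper was second to the peripheral endosperm, above both micropylar arrays. The gene rpoC2 of the same operon gave 8386 and 7412 in the embryo proper, 6258 and 7191 in micropylar and 12432 and 12818 in peripheral endosperm, the same order of the 3. The alpha subunit gene rpoA, which lies elsewhere beside ribosomal protein genes, had the narrowest range, at 5705 and 10919.6 in whole seeds, 7812 and 5701 in the embryo proper, 10576 and 6554 in micropylar, 8849 and 12316 in peripheral and 2504 and 5381 in chalazal endosperm, 3381 and 4496 in the chalazal and 5362 and 7443 in the general seed coat. Its pairs were loose and its peripheral arrays overlapped the micropylar ones.

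All 4 polymerase genes were above 0 in the embryo comparison, at 0.15 for rpoA, 0.30 for rpoB, 0.69 for rpoC2 and 0.82 for rpoC1, and none was called. For rpoC1 and rpoC2 the limma adjusted p was 0.0101 and 0.0164, but their size was under the 2-fold limit. Without embryo replicate 2, rpoC1 was called higher there. In the peripheral endosperm rpoB, rpoC1 and rpoC2 were called higher, with rpoB farthest at 1.92 and rpoC1 next at 1.54, and rpoA stood at 0.92 (SE 0.28), not called. None was called in the micropylar endosperm, and none passed an unadjusted p of 0.05 there. In the chalazal seed coat rpoB and rpoC1 were called lower, and 1 gene was called there without chalazal seed coat replicate 1, without embryo replicate 1, without micropylar replicate 1 and with quantile normalization.

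The reading frames ycf3 and ycf4 encode assembly factors of photosystem I, not subunits. Signal of ycf3 varied least of all 49 genes: 7139.9 and 5564 in whole seeds, 6644 and 8020.3 in the embryo proper, 7269 and 6110.1 in micropylar, 8141 and 10745 in peripheral and 4740.2 and 6822 in chalazal endosperm, 5959 and 4448 in the chalazal and 6788 and 6517 in the general seed coat. The highest compartment mean of ycf3 was 1.81 times the lowest on the log2(signal + 35.9231) scale, and it was called in no comparison. For ycf4 the values were 6273 and 4008 in whole seeds, 1875 and 2725 in the embryo proper, 4489.9 and 3169.6 in micropylar, 7719 and 10365 in peripheral and 1963 and 4284 in chalazal endosperm, 1768 and 2519 in the chalazal and 2841 and 3785 in the general seed coat. Its peripheral arrays lay above all others (1.66, SE 0.29, limma adjusted p = 0.000276).

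**Figure D3:**
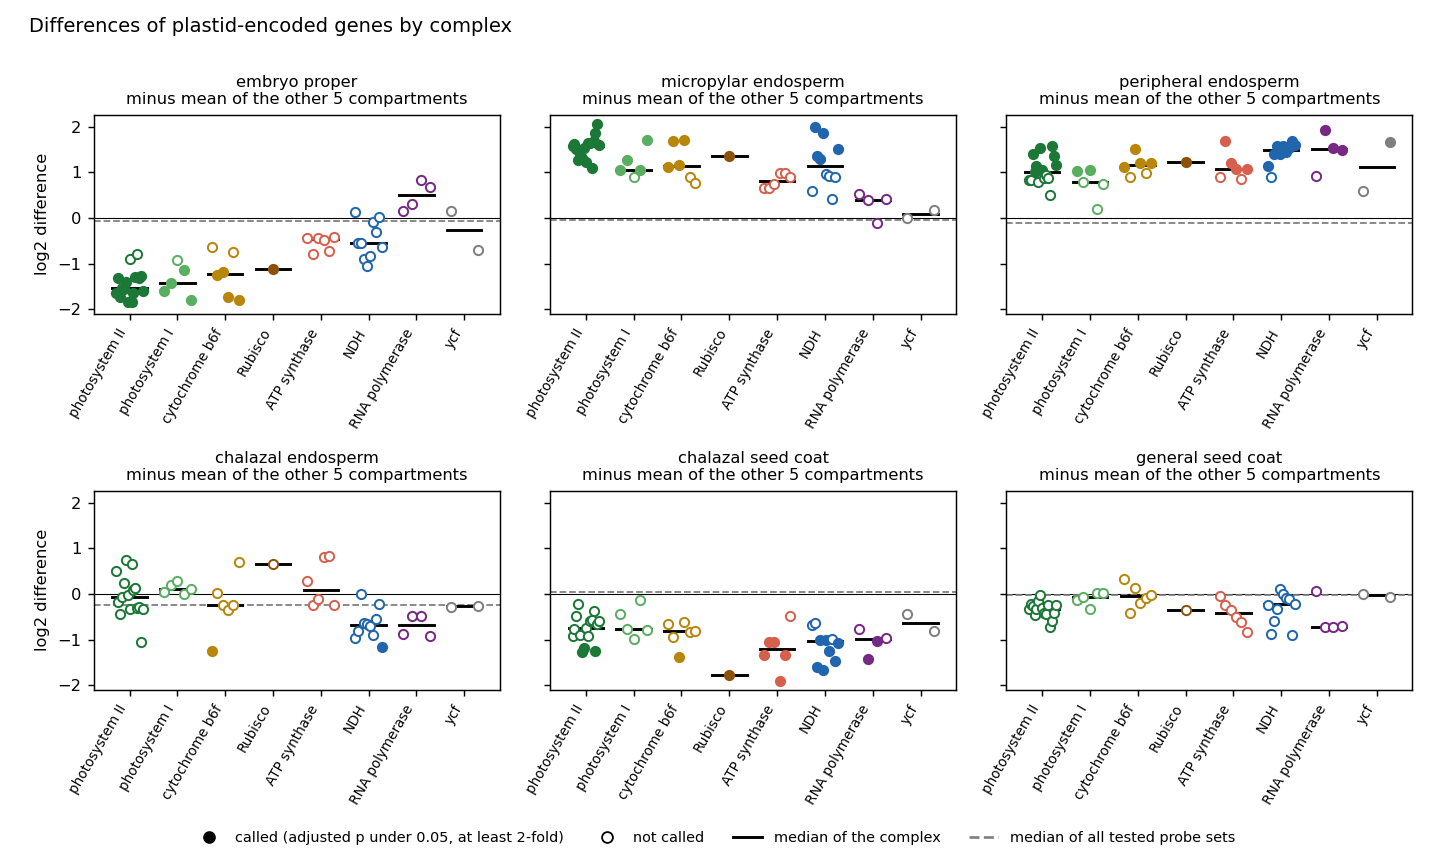
Log2 difference of each of the 49 genes (points, filled where called) by complex, 1 panel per compartment against the mean of the other 5; black bars are medians of a complex and the dashed line is the median of all tested probe sets. In the embryo panel the photosystem medians lie near -1.5 and the RNA polymerase median at 0.50, and in the peripheral panel NDH and RNA polymerase medians (1.49 and 1.52) lie above those of the photosystems.

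Set side by side, the medians of the complexes differed in the embryo proper. The 20 photosystem genes had a median difference of -1.48 there and 17 were called lower, against a median of -0.07 over all tested probe sets. For 14 of the 20 both embryo arrays lay below all other compartment arrays, against 4.75% of tested probe sets. Cytochrome b6f genes had a median of -1.22, and rbcL stood at -1.12. ATP synthase genes had a median of -0.46, NDH genes -0.55, RNA polymerase genes 0.50 and the 15 plastid ribosomal protein genes 0.24. Single genes of these groups overlapped: photosystem II genes reached up to -0.79, while NDH genes reached down to -1.04 and ribosomal protein genes to -1.11. The photosystem median lay 1.97 below that of the polymerase genes (1.92 to 2.24 below over the 22 alternatives). Within single embryo arrays, where both gene groups share 1 scaling, it lay 1.67 and 1.86 below relative to their means over compartments. No other compartment array had such a gap: the photosystem genes stood 0.89 and 1.08 above the polymerase genes in the micropylar endosperm, 0.43 and 0.45 below in the peripheral endosperm, 0.49 and 0.56 above in the chalazal endosperm and 0.28 and 0.32 above in the general seed coat. The chalazal seed coat arrays had the groups 0.41 apart on one and 0.04 apart in the other direction on the other. Groups of genes chosen by name are compared here by medians only, and the gaps carry no test.

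**Figure D4:**
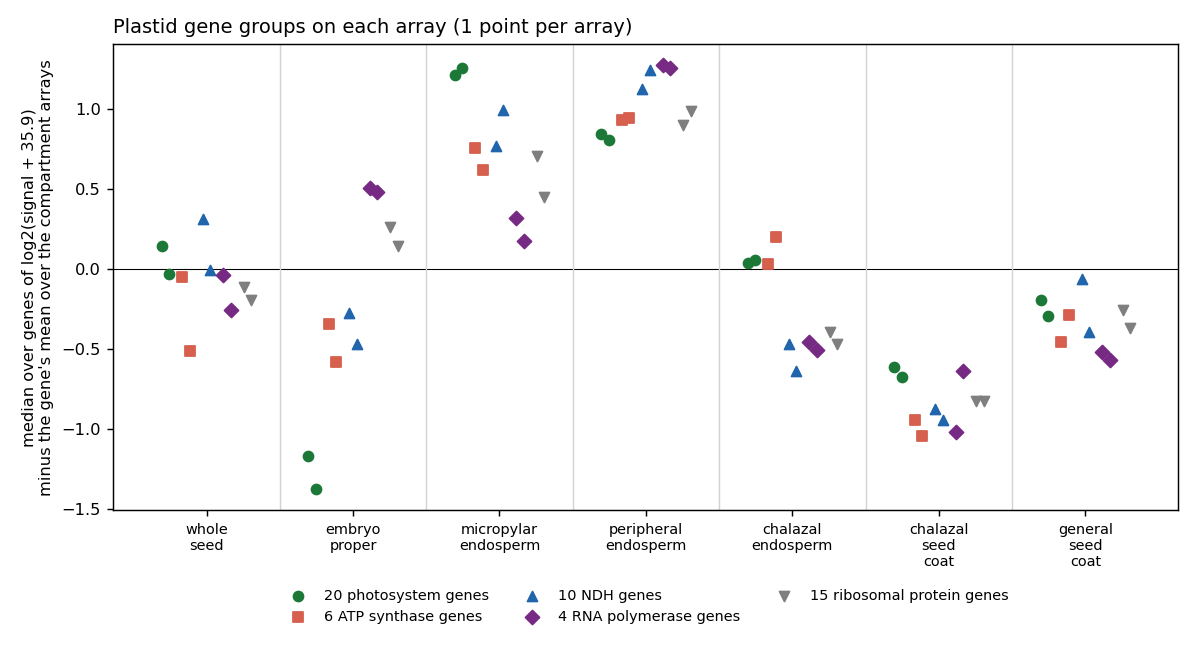
Median over genes of log2(signal + 35.9) minus each gene's mean over the compartment arrays, for 5 groups of plastid genes on each of the 14 arrays (1 point per array). In the embryo proper the photosystem points lie at -1.17 and -1.38 and the RNA polymerase points at 0.51 and 0.48; in the micropylar endosperm photosystem genes stand above and in the peripheral endosperm below the polymerase genes.

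Micropylar and peripheral endosperm, neighbouring regions of 1 tissue, were compared directly to ask whether their plastid genes differ. Of the 49 genes 3 were called lower in the micropylar endosperm, a share no higher than the 6.13% of all tested probe sets called lower. They were rpoC1 at -1.37 (SE 0.29, limma adjusted p = 0.00402), rpoB at -1.28 (SE 0.32, adjusted p = 0.0125) and ycf4 at -1.24 (SE 0.37, adjusted p = 0.0333). None of the 3 was called without micropylar replicate 2 or with no variance trend, and rpoC1 was the 1 called without peripheral replicate 1 and without peripheral replicate 2. Of the 20 photosystem genes 18 were above 0, none was called and 6 were higher at an unadjusted p under 0.05; 15 had both micropylar arrays above both peripheral arrays, against 27.8% of tested probe sets, and psaC had both below, against 25.7%. That lean depends on the scaling, since 7 genes lay wholly above and 5 wholly below with quantile normalization, and 6 and 3 with arrays scaled to 1 median. Scaling to 1 median moves the median of all probe sets in this comparison from 0.04 to -0.21. Between gene groups, which share their arrays, the photosystem median lay 1.48 above the polymerase median (1.05 to 1.52 over the 22 alternatives). It lay 0.73 above the NDH median (0.35 to 0.85). Leaving out an array of another group cannot move these gaps. Nor can a change of filter, variance trend, size threshold or replicate block alone. Summed signal of the 3 endosperm markers also differed, at 1878 to 2680 in the micropylar against 9642 to 11810.1 in the peripheral endosperm, with all 3 markers below 0 and none at 0 signal; its part in these results was not tested.

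Peripheral against chalazal endosperm gave the most NDH and polymerase calls of the 3 pairs of regions compared. In it 27 of the 49 genes were called higher in the peripheral endosperm, against 15.7% of tested probe sets. All 49 were above 0, and 45 had both peripheral arrays above both chalazal arrays, against 31.8%. They included all 10 NDH genes, with a median of 1.75, and all 4 polymerase genes, with a median of 1.85, but 6 of the 20 photosystem genes, with a median of 0.73. The gene ndhK differed most, at 2.29 (SE 0.43, limma adjusted p = 0.000401), with 4698 and 5026 in the peripheral against 1518 and 606 in the chalazal endosperm. Genes with nearly equal signal in the regions were atpH (0.03, SE 0.21) and psbF (0.04, SE 0.23). Without peripheral replicate 2, 6 of the 10 NDH genes were called, and with quantile normalization 10 of the 20 photosystem genes were.

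Endosperm was set against the maternal seed coat over 3 and 2 regions. In the endosperm 31 of the 49 genes were called higher, against 14.0% of tested probe sets, none was called lower or had an unadjusted p under 0.05 in that direction, and all 49 were above 0. The largest differences were 1.80 for atpF (SE 0.16, limma adjusted p = 2.65e-08), 1.78 for rbcL (SE 0.13, adjusted p = 1.48e-09) and 1.68 for ndhD (SE 0.20, adjusted p = 7.91e-07). For 19 genes all 6 endosperm arrays lay above all 4 seed coat arrays, against 5.51% of tested probe sets. That count was 6 with quantile normalization and 26 with arrays scaled to 1 median. Called were 13 of 20 photosystem genes, 6 of 6 ATP synthase genes and 6 of 10 NDH genes, and of the polymerase genes rpoB alone (1.40, SE 0.21). The polymerase count was 3 without chalazal endosperm replicate 2 or chalazal seed coat replicate 2, and 2 without either micropylar array, either general seed coat array or peripheral replicate 2. With quantile normalization 18 genes were called in all, 7 of them of the photosystems and 1 of the ATP synthase.

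Within the seed coat, the chalazal region was the dimmer one. Of the 49 genes 45 were below 0 in the chalazal against the general seed coat, and 35 had both chalazal arrays below both general ones, against 25.1% of tested probe sets. Called lower were 4, against 4.22%: rbcL at -1.18 (SE 0.20, limma adjusted p = 0.000478), atpF at -1.17 (SE 0.25, adjusted p = 0.00437), petD at -1.27 (SE 0.31, adjusted p = 0.0101) and atpA at -1.08 (SE 0.29, adjusted p = 0.0207). The gene petD gave 1834 and 2020.4 in the chalazal against 4579 and 4818 in the general seed coat. In this comparison 1 gene was called without chalazal seed coat replicate 1, 2 genes were called without chalazal seed coat replicate 2, and none was called without the variance trend. Against the other 5 compartments, the chalazal seed coat had a median of -1.20 for ATP synthase genes, -1.04 for NDH genes and -0.76 for photosystem genes. Of the 20 photosystem genes 3 were called lower (psbF, psbH and psbN), against 9.92% of tested probe sets. That count was 7 with arrays scaled to 1 median, and it ran from 2 to 13 over the settings that kept all arrays. The photosystem median ran from -0.93 to -0.46 over all alternatives.

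Whole seed sections lay near the mean of the compartments. None of the 49 genes was called by limma, against 10.7% of tested probe sets called in either direction, with 4 higher and 4 lower at an unadjusted p under 0.05. The differences ran from -0.61 for atpF (SE 0.19, adjusted p = 0.0446) to 0.73 for ndhJ (SE 0.30, adjusted p = 0.127). The median was 0.06, against 0.09 over all tested probe sets. Whole seed replicate 1 was brighter than replicate 2 by a mean of 0.28 over the 49 genes, more than any other pair (0.03 to 0.13 in size).

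Differences were also set in the order of the genes on the plastid genome. Of the 49 genes 41 fall into 12 units that are known to be transcribed together. The psbD, psbC and psbZ unit had embryo differences within -1.72 to -1.53, psaA and psaB -1.59 and -1.42, and psbE, psbF, psbL and psbJ -1.83 to -1.30. The rpoB, rpoC1 and rpoC2 unit ran from 0.30 to 0.82, and the atpI, atpH, atpF and atpA unit beside it from -0.71 to -0.41. Some units spread wider: petL, petG and psaJ ran from -1.81 to -0.74, and the unit from ndhH to ndhD from -0.92 to 0.13. The genes psbK and psbI stood at -1.64 and -0.89, and the ndhC, ndhK and ndhJ unit ran from -0.64 to 0.02. In the embryo comparison 42 of all 49 genes were below 0, so a shared sign there says little about neighbours. In micropylar minus peripheral endosperm 5 of the 12 units held both signs. In the unit of psaI, ycf4 and petA, the micropylar minus peripheral difference was 0.71 for psaI (SE 0.27), -1.24 for ycf4 (SE 0.37) and 0.01 for petA (SE 0.29). The array had psaI at 10569.7 and 8683 in micropylar against 5893 and 5818 in peripheral endosperm, and ycf4 at 4489.9 and 3169.6 against 7719 and 10365. These neighbours had opposite signs, with no overlap in either, but psaI was not called. Of all tested probe sets 27.8% lay wholly above and 25.7% wholly below in that comparison. In the long unit from ndhH to ndhD, all 7 genes were below 0 in that comparison (-0.94 to -0.03), psaC among them at -0.13.

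**Figure D5:**
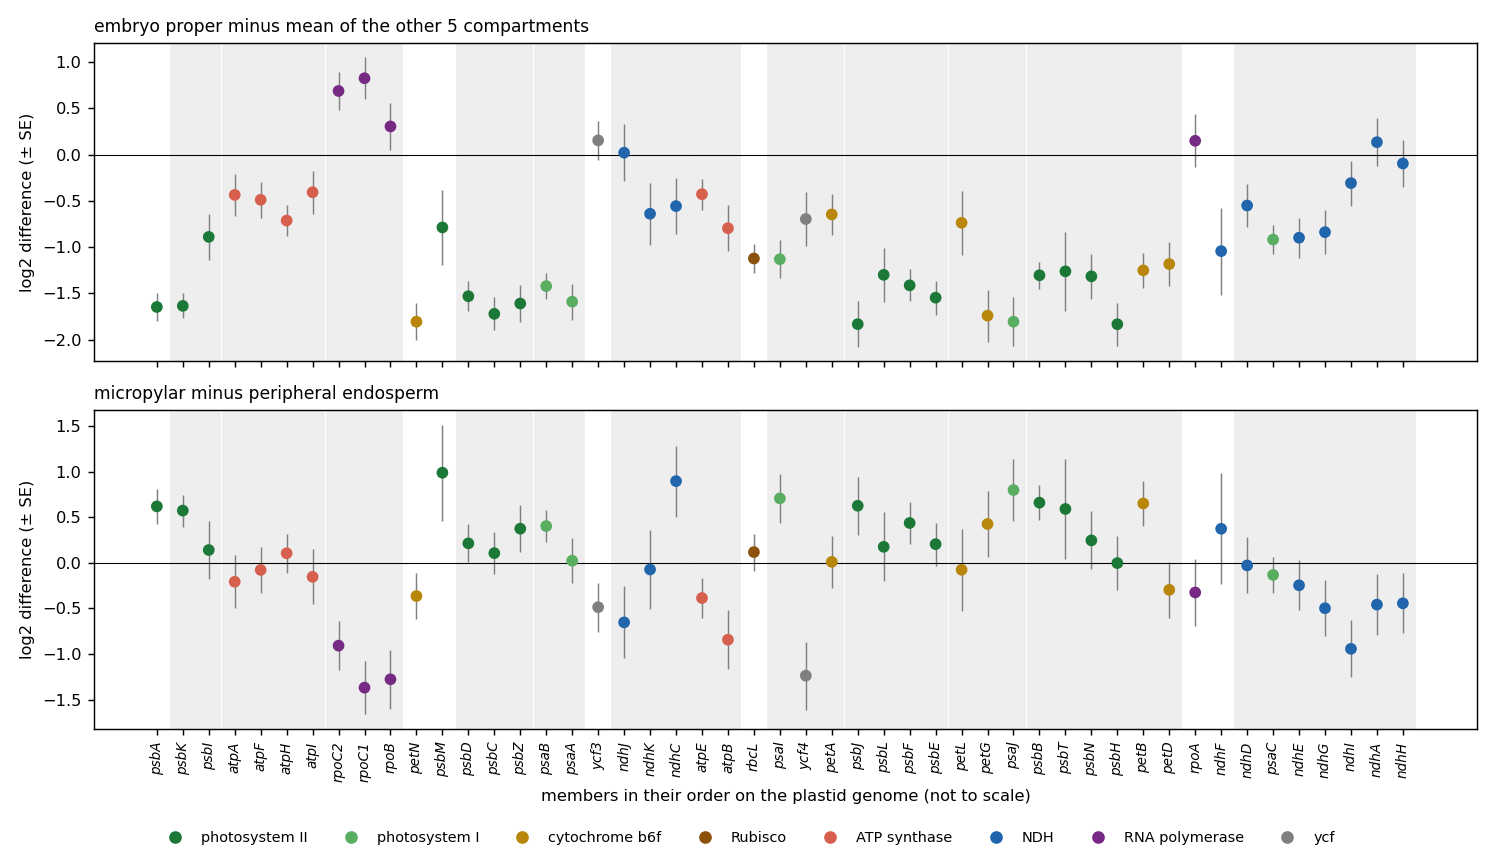
Log2 differences (points, ± SE) of the 49 genes in their order on the plastid genome, not to scale, for the embryo proper against the mean of the other 5 compartments (top) and micropylar minus peripheral endosperm (bottom). Grey bands run from the first to the last gene of each of the 12 co-transcribed units, and colour gives the complex. The band from psbB to petD also covers psbN, which belongs to none of the units. In the top panel the rpoB unit stands above 0 between ATP synthase and photosystem units below it, and in the bottom panel the same unit is the lowest block, near -1.

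Plastid genes outside photosynthesis were not low as a group in the embryo proper, where their median was 0.07. Of the 20, 10 were above 0 and 10 below. Against 12.1% of tested probe sets, rps14 was the 1 called lower there (-1.11, SE 0.27, limma adjusted p = 0.00425). It lies beside psaA and psaB, with which it is transcribed, but a link of that place to its signal was not tested. The signal of rps14 was 1093 and 1539 in the embryo proper, against 5836 and 5020.2 in micropylar endosperm. In the peripheral endosperm 14 of the 20 were called higher, against 10.2% of tested probe sets, led by the ribosomal protein gene rps2 at 1.84 (SE 0.27, adjusted p = 6.23e-05). That gene was also the 1 of the 20 called lower in micropylar against peripheral endosperm (-1.77, SE 0.35), a share no higher than the 6.13% of tested probe sets. The fatty acid synthesis gene accD and the protease gene clpP were not called against the other compartments (-0.53 and 0.24 in the embryo proper). The intron maturase gene matK was called higher in micropylar (1.53) and peripheral endosperm (1.23) and lower in the chalazal endosperm (-1.22) and chalazal seed coat (-1.05).

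Nuclear genes for the same machinery were read from lists set up for it, of which few members had a named probe set. A list of 51 nuclear genes of photosynthetic electron transport and ATP synthesis had 10 tested, 8 of them for photosystem or antenna proteins and 2, ATPC1 and ATPC2, for the gamma subunit of the ATP synthase. Of the 8, 5 were called lower and none higher in the embryo proper, against 12.1% of tested probe sets called lower. In the micropylar endosperm 5 were called higher, against 9.86%, and in the peripheral endosperm 8, against 10.2%, with a median of 2.53. ATPC1 was called higher in micropylar (1.69) and peripheral endosperm (2.84) and ATPC2 in neither, both singled out after their values were seen. PSAE-1 of photosystem I gave 925 and 536 in the embryo proper, 6159.8 and 6811 in micropylar and 9283 and 11060.3 in peripheral endosperm. PSBW, a small subunit of photosystem II, gave 866 and 1297 in the embryo proper, 9366 and 8684 in micropylar and 11011 and 9992 in peripheral endosperm. In micropylar against peripheral endosperm all 8 photosystem or antenna genes were below 0, with a median of -0.63, and 2 were called lower, while the 20 plastid photosystem genes had a median of 0.39. Of 15 nuclear genes of the Calvin cycle 3 were tested, and RCA, PRK and SBPASE were each called higher in the peripheral endosperm, lower in the embryo proper and lower in the micropylar than in the peripheral endosperm. Rubisco activase (RCA) gave 107 and 139 in the embryo proper, 406 and 249 in micropylar and 1972 and 2351 in peripheral endosperm. Between these endosperm regions rbcL differed by 0.12 (SE 0.20), or down to -0.59 with other scalings. Of 6 tested genes of chlorophyll synthesis and plastid division, PORB, CHLI2, CHLM and FTSZ2-1 were called higher in the peripheral endosperm. Sigma factors, phage-type polymerases and proteins bound to the plastid-encoded polymerase had no probe set with a single listed symbol in the table used here and were not analysed here.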

How the data were processed

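RNA amplified from 2 to 5 ng of total RNA of each laser-captured sample was measured on ATH1 arrays, 14 in all. The deposited values are the authors' intensity per probe set, made with GCOS per the submitters' processing notes; its version and algorithm are not given in the sources used here. On every array their mean, trimmed by 2% at each end, lay between 500.042 and 500.069, so arrays had been scaled to a common mean, which could hide a change shared by most genes. Detection flags were not used here. Probe sets were named from GEO's platform annotation (1 symbol for 13513, several for 503, none for 8730 of 22746 without controls), and 13436 of the named ones matched a RefSeq gene table of the TAIR10.1 assembly, used for names and gene order alone. Of that table's 129 plastid genes 69 had a probe set of their own, and 3 probe sets with a member's name among several were left out.

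All groups were fitted together with limma 3.58.1 in R 4.3.3 on log2(intensity + 35.9231), the added value being the 25th percentile of all values, with a variance trend, 7 residual and 13.4 prior degrees of freedom, and Benjamini-Hochberg adjustment in each of 11 comparisons. The calculation was tested on simulated data. With 2 arrays a group, the number of arrays limits the precision. The genes and lists were chosen with earlier results of these data known. All-array values are given for psbA, rbcL and, in each complex, the 2 genes with the widest and the 1 with the narrowest range over compartments. Other genes are named from the lists, up to 4 called a list by smallest adjusted p, apart from plastid genes. Co-transcribed units come from background knowledge. Replicate numbers did not pair samples: over 21 pairs of groups, deviations of same-numbered arrays correlated at -0.03 to 0.04, none over 0.1. The 22 alternatives were 8 other settings and each array left out. Counting and plotting used Python 3.11.15 with matplotlib 3.10.9.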

Additional observations from a re-analysis of the deposited data

How the results depend on the processing

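None of 539 differences (49 genes in 11 comparisons) that was called changed sign under the 22 alternatives. That says little, since a called difference is at least 2-fold and several alternatives cannot move it. Changing only the filter, the variance trend or the size threshold leaves it as it is, as does leaving out an array outside the comparison. Of the 169 calls, 89 held in all alternatives and 80 were lost in at least 1, while 111 differences were called only under some alternative. Quantile normalization gave 17 genes called in the micropylar endosperm, 1 in the general seed coat and 18 in endosperm against seed coat. Scaling to 1 median gave 1 in the general seed coat and 6 in micropylar against peripheral endosperm. With no threshold on size 16 genes passed in the chalazal endosperm, 36 in the chalazal and 9 in the general seed coat, 7 in micropylar against peripheral endosperm and 1 in whole seeds. With no variance trend 0 genes were called by limma in micropylar against peripheral endosperm and 0 in chalazal against general seed coat, where the trended fit had 14 and 20 genes at an unadjusted p under 0.05. Leaving out 1 array gave 2 to 5 calls in the chalazal endosperm, 0 to 3 in micropylar against peripheral endosperm and 1 to 4 in chalazal against general seed coat. Elsewhere it gave 20 to 22 in the embryo proper (19 to 22 lower), 28 to 31 in micropylar and 26 to 33 in peripheral endosperm, 16 to 21 in the chalazal seed coat, 27 to 36 in endosperm against seed coat and 19 to 27 in peripheral against chalazal endosperm. The replicate block left every count as it was, with 22 calls in the embryo proper, 29 in micropylar and 32 in peripheral endosperm; the replicate numbers share no known pairing. The cause of these changes was not tested. Where 1 array of a group was left out, the lone array was assumed to vary like the other groups.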

Other observations

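Several nuclear factors that process plastid RNA were high in the peripheral endosperm. Of 9 tested maturation and editing factors 4 were called higher there, against 10.2% of all tested probe sets: CRR21 at 2.28 (SE 0.64), which edits ndhD RNA, the RNA helicase RH39 at 1.99 (SE 0.49), LPA66 at 1.31 (SE 0.44), which edits psbF RNA, and OTP81 at 1.23 (SE 0.43). In the chalazal endosperm LPA66 (-1.96), OTP81 (-2.21) and RH39 (-2.18) were called lower, against 18.7% of tested probe sets. OTP81 gave 236 and 320.0 in the peripheral endosperm against 8.61 and 5.14 in the chalazal endosperm, with no overlap, and since the chalazal values lie under the added value its difference there is set by that floor. None of the 9 was called in the embryo proper by limma, where 3 were above 0 and 6 below. Of 3 tested nuclear NDH genes PIFI was called higher in the peripheral endosperm (1.83, SE 0.41, limma adjusted p = 0.00256).

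Of 4 tested genes of chlorophyll synthesis PORB, CHLI2 and CHLM were called lower in micropylar than in peripheral endosperm. PORB, a protochlorophyllide reductase, gave 271 and 369 in micropylar against 1949 and 2412 in peripheral endosperm, a difference of -2.64 (SE 0.62, limma adjusted p = 0.00753). CHLI2, a magnesium chelatase subunit, differed by -2.56 (SE 0.68) and CHLM, a magnesium protoporphyrin methyltransferase, by -2.12 (SE 0.50). All 6 tested genes of chlorophyll synthesis and plastid division were below 0 in that comparison and 4 were called lower, against 6.13% of tested probe sets. Of the 49 chloroplast genes the farthest below 0 there was rpoC1 at -1.37; whether these genes differ from each other was not tested.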
